A study of Mus musculus with 9 samples.

Results

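Circular RNAs (circRNAs) made from membrane traffic genes were described in differentiating mouse muscle cells. Host genes were taken by name: every host in the deposited circRNA table whose symbol starts with Vps, Snx, Tbc1d, Exoc, Trappc, Rab followed by a digit or Stx followed by a digit, with Exoc1 left out. The rule found 130 of 6943 hosts, and these hosts carried 915 of the 37751 circRNAs. By family these were 27 Vps, 20 Snx, 25 Tbc1d, 7 Exoc, 8 Trappc, 32 Rab and 11 Stx hosts. A symbol was matched to 6861 of the 6943 host IDs. The naming rule took in Vps72, which is known as a subunit of chromatin complexes, and Rab10os, an antisense gene.

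The libraries came from C2C12, a myoblast line derived from mouse skeletal muscle, and all 9 share that line, with no genetic change or drug in any group. Day 0 cells were taken while proliferating at 70 to 80% confluence in medium with 10% fetal bovine serum. Day 3 and day 6 cells had spent 3 or 6 days in medium with 2% horse serum, which drives myoblasts to withdraw from the cell cycle and fuse into myotubes. There were 3 libraries a day, each made from 1000 ng of RNA that the submitters describe as enriched for circRNAs. No RNase R step is named in the labels, and the labels do not say whether each library is its own culture. The p-values therefore rest on the spread between libraries of a day, which may be technical.

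Membrane traffic moves cargo between compartments in carriers that bud, are carried, are tethered and fuse. Rab GTPases mark each compartment, guanine nucleotide exchange factors switch them on, and GTPase-activating proteins such as the TBC1D family switch them off. Tethering complexes such as exocyst, TRAPP, HOPS and GARP catch a carrier, syntaxins and other SNAREs fuse it, and sorting nexins with retromer or retriever send cargo out of endosomes. In muscle this machinery is known for the insulin- and contraction-driven movement of the glucose transporter GLUT4. A circRNA arises when the end of a downstream exon is spliced back to the start of an upstream exon, and its level need not follow that of the linear messenger RNA.

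The back-splice junctions below belong to leading circles of hosts on which the results turn, and to the other circles that passed the test. Each was assembled from the exons of GENCODE M21 transcripts (GRCm38) at the ends given in the deposited table. The last 25 bases of the downstream exon are in lower case and the first 25 bases of the upstream exon in capitals, so the change of case is the splice that only a circle holds. On the plus strand lie Stx6 exons 2 to 7 (chr1:155173986-155197435), Tbc1d1 exons 8 to 12 (chr5:64275395-64286084), Vps35l exons 25 to 27 (chr7:118811805-118826323) and Snx29 exons 12 to 13 (chr16:11445165-11447508). On the minus strand lie Snx5 exons 6 to 9 (chr2:144255340-144257993), Snx5 exons 5 to 11 (chr2:144254726-144259178) and Tbc1d14 exons 4 to 7 (chr5:36519273-36525048).
Stx6 exons 2 to 7: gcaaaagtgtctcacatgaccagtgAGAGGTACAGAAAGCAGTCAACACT
Snx5 exons 6 to 9: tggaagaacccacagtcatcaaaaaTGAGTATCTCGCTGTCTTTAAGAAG
Snx5 exons 5 to 11: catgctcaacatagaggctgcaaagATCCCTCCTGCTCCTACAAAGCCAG
Snx29 exons 12 to 13: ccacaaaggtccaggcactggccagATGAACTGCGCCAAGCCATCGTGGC
Vps35l exons 25 to 27: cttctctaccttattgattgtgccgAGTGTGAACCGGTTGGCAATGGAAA
Tbc1d1 exons 8 to 12: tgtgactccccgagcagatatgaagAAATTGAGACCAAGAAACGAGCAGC
Tbc1d14 exons 4 to 7: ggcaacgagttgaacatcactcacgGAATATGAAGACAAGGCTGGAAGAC
With every annotated exon between the ends counted, the spliced lengths of these circles run from 193 bases for Snx29 to 748 bases for Tbc1d1. Both Snx5 circles span exons 6 to 9. Only the ends of a circle are given in the deposited table, so which inner exons it holds was not observed.

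The libraries held between 208787 and 443955 circRNA reads each. The smallest count above 0 in the table is 2, so a circle listed at 0 in a library may have had a single read. Floors and library totals speak only of counting error, whereas the SD and SE values given below also hold the spread between libraries. As a check of the labels, the summed circRNA reads of 12 muscle marker hosts, scaled to library size as CPM and taken from 16 listed genes, were 203 to 402 on day 0, 9446 to 10958 on day 3 and 11166 to 14937 on day 6, with Actn2, Myh4, Myh7 and Myh8 at 0. The 10 hosts marking proliferating cells summed to 6315 to 6978 CPM on day 0, 1174 to 1644 on day 3 and 440 to 682 on day 6. Markers of reserve cells had reads for 1 of 6 genes (29.5 to 128 CPM on day 0, 70.1 to 322 on day 3 and 159 to 239 on day 6), those of adipocytes and osteoblasts for 2 of 8 (327 to 672 CPM on day 0, 490 to 869 on day 3 and 380 to 634 on day 6), and those of endothelial and blood cells for none of 4 and none of 3. The part of this change in cell makeup in the results below was not tested, and in bulk RNA fewer cells of a type and less RNA per cell cannot be told apart.

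Membrane traffic hosts gave 69231 reads over the 9 libraries. Their share of a library's circRNA reads was 2.68 ± 0.0874% on day 0, 2.48 ± 0.0699% on day 3 and 2.61 ± 0.0287% on day 6 (SD, n = 3 each). Every day 3 library (2.43 to 2.56%) lay below every day 0 library (2.59 to 2.76%), and the day 6 libraries (2.57 to 2.63%) overlapped those of day 0. The sorting nexins supplied 0.790 ± 0.0417% of reads on day 0, 0.584 ± 0.0496% on day 3 and 0.482 ± 0.0806% on day 6, with every day 3 and day 6 library below every day 0 library. The syntaxins supplied 0.388 ± 0.0115% on day 0, 0.446 ± 0.0302% on day 3 and 0.524 ± 0.0130% on day 6, and the 3 days did not overlap.

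The Tbc1d family supplied 0.322 ± 0.0299% of reads on day 0, 0.385 ± 0.0336% on day 3 and 0.426 ± 0.0103% on day 6, again with no day 3 or day 6 library as low as a day 0 library. The exocyst genes dipped on day 3, at 0.167 ± 0.00694% on day 0, 0.101 ± 0.0155% on day 3 and 0.165 ± 0.0204% on day 6. Among Vps, Trappc and Rab hosts the libraries of day 6 overlapped those of day 0 and of day 3. The Trappc libraries of day 3 (0.186 to 0.196%) lay above those of day 0 (0.155 to 0.180%). These family shares are descriptions and were not tested.

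**Figure D1:**
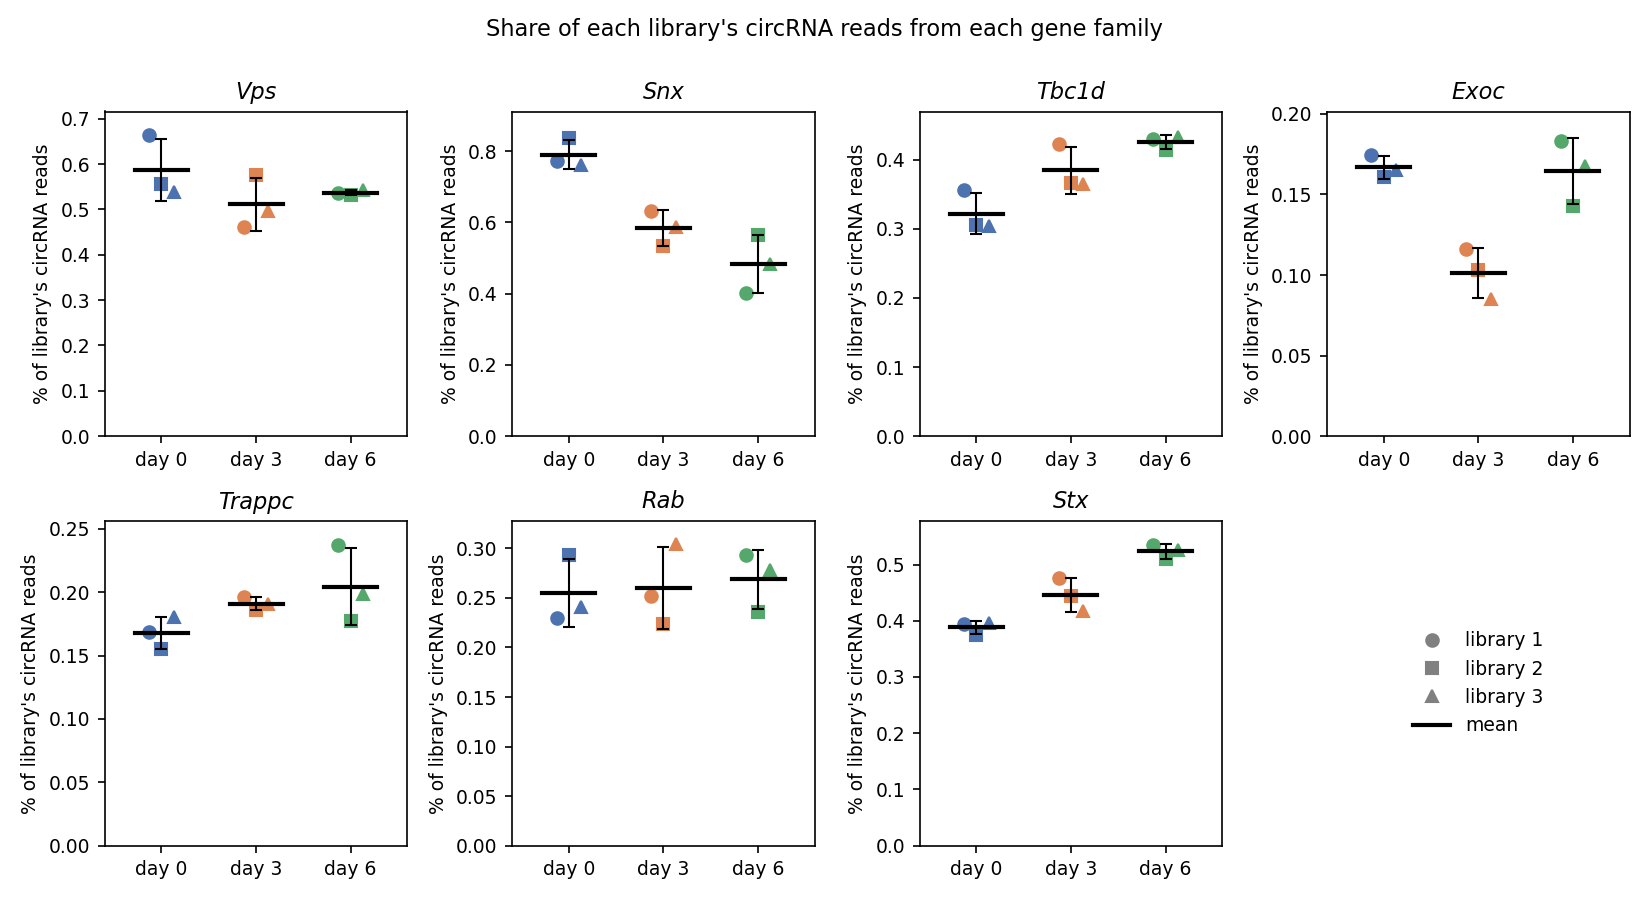
Share of each library's circRNA reads (percent, vertical axis) from each of 7 gene families on days 0, 3 and 6. Points are single libraries, black bars the mean of 3 libraries and error bars the SD; Snx libraries lie highest on day 0, Stx libraries highest on day 6 and Exoc libraries lowest on day 3, and the Tbc1d mean is highest on day 6 with libraries that overlap day 3.

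The Snx, Stx and Tbc1d shares were also split by their leading hosts. Snx5 alone supplied 0.277 ± 0.0233% of library reads on day 0, 0.110 ± 0.0277% on day 3 and 0.0759 ± 0.0476% on day 6, and the other Snx hosts together 0.513 ± 0.0306%, 0.474 ± 0.0220% and 0.406 ± 0.0408% on the same days. Stx6 alone supplied 0.336 ± 0.0129% on day 0, 0.402 ± 0.0399% on day 3 and 0.473 ± 0.0102% on day 6, whereas the other syntaxins stayed between 0.0290% and 0.0709% in every library. Tbc1d1 and Tbc1d14 together supplied 0.137 ± 0.0225% on day 0, 0.200 ± 0.0194% on day 3 and 0.242 ± 0.0282% on day 6, and the other Tbc1d hosts 0.185 ± 0.0304%, 0.184 ± 0.0285% and 0.184 ± 0.0285%. The 3 hosts with the most reads held 26.6% of all membrane traffic reads, and the 10 with the most held 54.4%.

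Fold changes were tested on reads summed per host with edgeR's quasi-likelihood test, fitted to all hosts and adjusted by Benjamini-Hochberg over the 4115 hosts tested, with an adjusted p under 0.05 as the threshold. Of the 130 hosts, 96 passed the filter on low counts, and these hold 99.3% of the reads. On day 3 against day 0, 2 of the 96 passed, where 3.96% of all tested hosts did: 2 fell, where 0.923% of all tested hosts fell, and none rose, where 3.04% did. On day 6 against day 0, 5 passed, where 5.66% of all tested hosts did: 4 rose, where 3.86% did, and 1 fell, where 1.8% did. On day 6 against day 3 none passed, where 0.0729% of all tested hosts did (0.0243% higher and 0.0486% lower).

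An unadjusted p under 0.05 was reached by 19 members on day 3 against day 0, or 19.8% of them beside 13.5% of all tested hosts. It was reached by 22 on day 6 against day 0 (22.9% beside 17.6%) and by 7 on day 6 against day 3 (7.29% beside 5.98%), and DESeq2 called 1 member in that last comparison. The libraries of the compared days did not overlap for 16 members (16.7% beside 20.9% of all tested hosts), 23 members (24% beside 23.8%) and 12 members (12.5% beside 11.3%) in the same order. The median log2 fold change of the tested members was 0.12 on day 3 against day 0 and -0.04 on day 6 against day 0, beside -0.02 and -0.13 over all tested hosts. The members' day 3 median turns to -0.03 with library totals in place of TMM factors and to -0.00093 with DESeq2's size factors. Their day 6 median turns to 0.13 with the replicate block, to 0.25 and 0.09 without the first or the third day 0 library, and to 0.14 and 0.11 without the first or the third day 6 library, and it is 0.01 without the second day 0 library. No direction is read from either. The 3 comparisons share libraries and are not independent of each other.

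**Figure D2:**
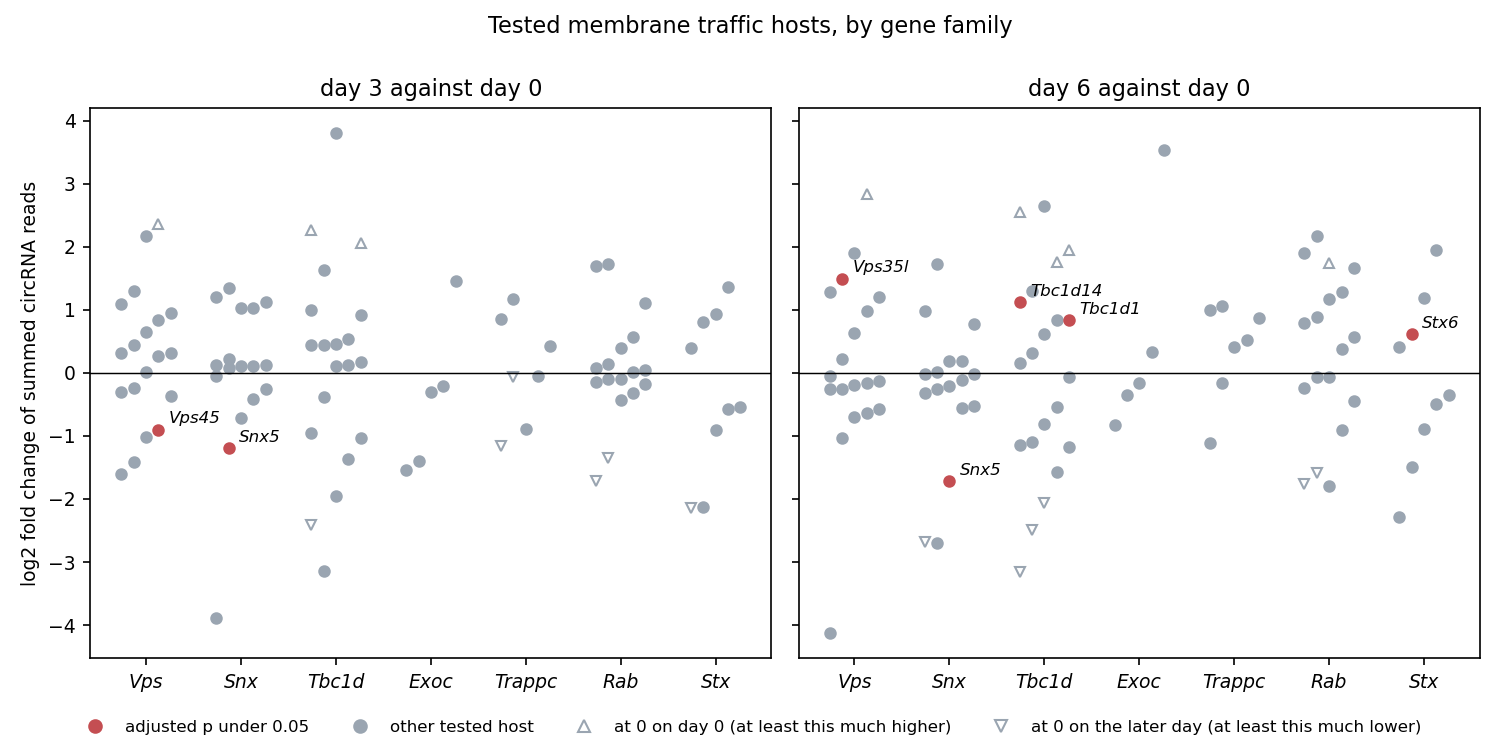
Log2 fold change (vertical axis) of the 96 tested hosts by gene family, for day 3 against day 0 and day 6 against day 0. Red points have an adjusted p under 0.05, grey points do not, and open triangles are bounds for hosts at 0 on one of the days; 2 hosts at 0 on day 3 or day 0, with no more than the floor of 3 reads per library on the other day, are not drawn.

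Among the sorting nexins, which bind endosomal lipids through a PX domain, 17 of 20 hosts were tested, 1 fell on day 3 and on day 6 against day 0, and none rose. Over all tested hosts 0.923% fell on day 3 and 1.8% on day 6, and 3.04% and 3.86% rose. The host that fell is Snx5, a nexin with a BAR domain that pairs with Snx1 or Snx2 to shape tubules returning cargo from endosomes to the Golgi. Its summed circles had 2360.2, 2679 and 2787 CPM on day 0, 1406, 838 and 1177 CPM on day 3, and 216, 1140.1 and 1004 CPM on day 6. All 6 differentiating libraries lay below all 3 proliferating ones, and the first day 6 library lay far below the other day 6 libraries. The log2 fold change was -1.19 ± 0.31 (SE) on day 3 against day 0 (adjusted p = 0.0198) and -1.72 ± 0.32 on day 6 against day 0 (adjusted p = 0.000282). Without the first day 6 library, the day 6 value was -1.28 (adjusted p = 8.52e-05). The day 3 call was lost under DESeq2 (adjusted p = 0.131) and with a minimum count of 10 (adjusted p = 0.0553), and the day 6 call was lost when only day 6 and day 0 libraries entered the fit (adjusted p = 0.0510).

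**Figure D3:**
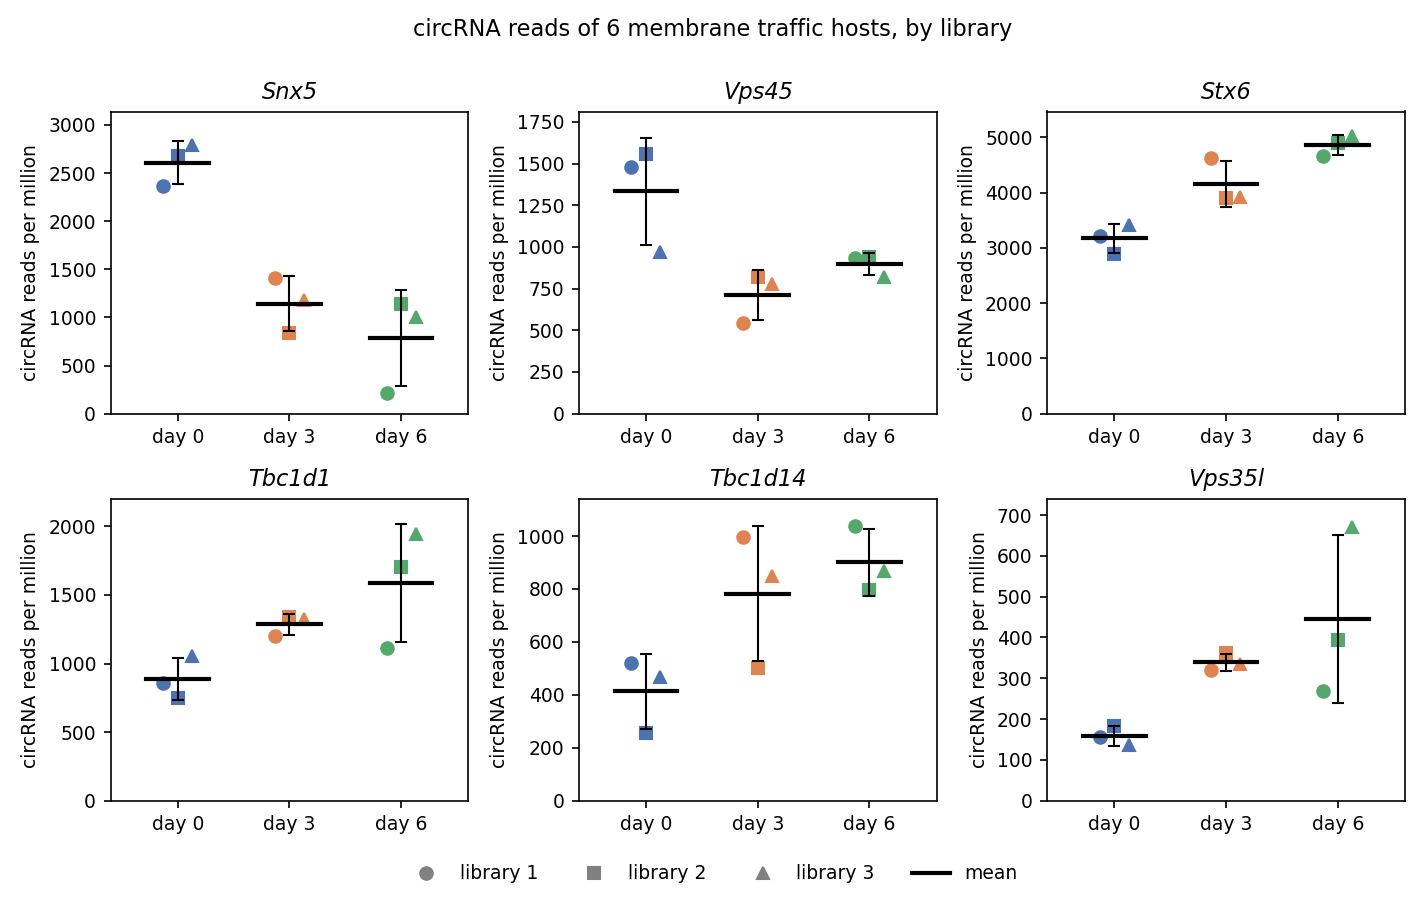
CPM (vertical axis) of the 6 hosts that passed the test in any comparison, in each of 9 libraries on days 0, 3 and 6. Points are libraries, black bars the mean of 3 and error bars the SD; the means of Snx5 and Vps45 are highest on day 0, and those of Stx6, Tbc1d1, Tbc1d14 and Vps35l lowest on day 0.

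Snx5 made 15 circles, of which 4 passed the filter and 11 were listed in a single library. The circle of exons 6 to 9, shown above, held 59.6% of the host's reads. It had 1387, 1832 and 1986 CPM on day 0, 1005, 301 and 768 CPM on day 3, and 117, 548 and 402 CPM on day 6. Its differentiating libraries all lay under its proliferating ones. Its log2 fold change was -1.33 ± 0.35 on day 3 against day 0 (adjusted p = 0.0282) and -2.28 ± 0.36 on day 6 against day 0 (adjusted p = 1.23e-05). The day 6 call held in all 9 fits that left out 1 library and under all 6 other settings, whereas the day 3 call was lost without the second day 3 library (adjusted p = 0.181), under DESeq2 (0.156), with a minimum count of 10 (0.142) and with only the 2 days in the fit (0.242). On day 6 against day 3 its log2 fold change of -0.96 ± 0.35 did not pass (adjusted p = 0.664), but passed without the second day 3 library (adjusted p = 0.0384).

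The longer Snx5 circle of exons 5 to 11, which encloses the first, had 749.5, 544 and 529 CPM on day 0, 295, 399.7 and 314 CPM on day 3, and 85.3, 170.4 and 286 CPM on day 6. The 3 days did not overlap. It changed by -1.74 ± 0.47 on day 6 against day 0 (adjusted p = 0.0311), and by -0.85 ± 0.46 on day 3 against day 0, which did not pass (adjusted p = 0.422). The day 6 call was lost without the first (adjusted p = 0.240) or the third (0.0572) day 0 library, without the first (0.313) or second (0.125) day 6 library, without a filter (0.211) and with only the 2 days in the fit (0.129). The remaining tested Snx5 circles shared the start of exon 3 and behaved less evenly, and they are named here after their values were seen. Exons 3 to 5 had means of 129 ± 73.1 CPM on day 0, 88.6 ± 19.0 on day 3 and 108 ± 104 on day 6 (SD, n = 3), and exons 3 to 7 had 146 ± 51.1, 14.02 ± 24.3 and 86.7 ± 80.2 CPM on the same days.

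**Figure D4:**
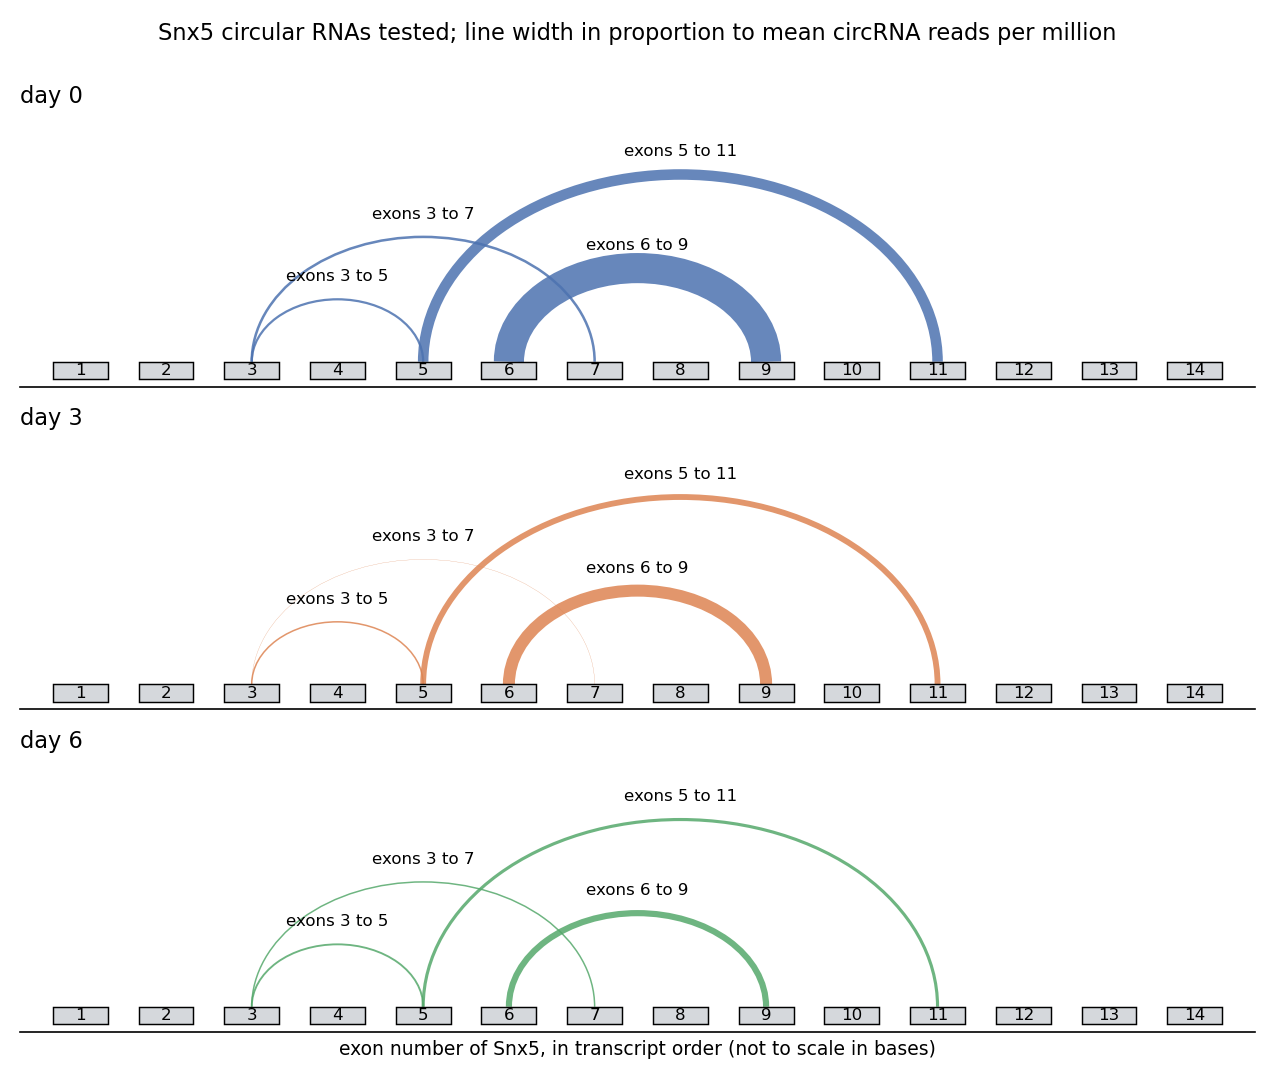
The 4 tested Snx5 circles as arcs from their first to their last exon along the transcript (horizontal axis, exon number), on days 0, 3 and 6. Line width is in proportion to the mean CPM of 3 libraries; the arc of exons 6 to 9 has a mean of 1735 CPM on day 0, 691 on day 3 and 356 on day 6.

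Known partners of Snx5 did not pass the test, and they too were picked after their values were seen. Snx6, a close relative that can take its place, had means of 344 ± 191 CPM on day 0, 400.2 ± 98.5 on day 3 and 288 ± 49.8 on day 6. Snx1 had 183 ± 93.8, 199 ± 151 and 182 ± 97.7 CPM on the same days. Neither passed in any comparison, and whether the folds of Snx5 and these partners differ was not tested. Snx27, which recycles receptors with retromer, stayed between 959 and 1617 CPM in every library, and no comparison passed. Its circle of exons 3 to 7 held 48.6% of its reads, at 544 ± 67.1, 601 ± 138 and 596 ± 39.6 CPM on days 0, 3 and 6.

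A second Snx27 circle, exons 2 to 7, used the same donor and had 135, 154 and 189 CPM on day 6, against 340.3, 273 and 789 CPM on day 3. These libraries did not overlap, but the log2 fold change of -1.55 ± 0.52 did not pass (adjusted p = 0.664), and without the third day 3 library it was -0.93. Snx9, which binds dynamin in endocytosis, had 1009, 461 and 772 CPM on day 6, against 1203, 938 and 1276 CPM on day 3. The ranges overlapped, and its log2 fold change of -0.61 ± 0.27 did not pass (adjusted p = 0.737). Its leading circle of exons 2 to 5 had 584, 389 and 521 CPM on day 0, 806, 596 and 1073 CPM on day 3, and 521, 406 and 462 CPM on day 6, so that all day 3 libraries lay above the others, with no comparison past the threshold. The leading circle of Snx13, exons 2 to 5, ranged from 237 to 755 CPM on day 6 alone.

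The circle of Snx29 exons 12 to 13, from a nexin with a RUN domain, was listed at 0 in all 3 day 0 libraries. It therefore passed the filter on low counts only through its day 3 and day 6 libraries. It had 89.8, 162 and 45.0 CPM on day 6, against 0 in each day 0 library, which makes it at least 9.04-fold higher against a floor of 3 reads per library (adjusted p = 0.0462). On day 3 it had 170.1, 137 and 0 CPM, at least 9.33-fold higher than on day 0 (adjusted p = 0.0529, not passed). The day 3 comparison passed without the third day 3 library (adjusted p = 0.0115), without the first (0.0344) or the third (0.0250) day 6 library, with library totals (0.0476) and with DESeq2 (0.00476). With 171 reads in all, this call is thin. It held in only 3 of 9 fits that left out 1 library, and it was lost without any day 0 library (adjusted p of 0.0885, 0.0684 and 0.0665 leaving out the first, the second and the third), without the first (0.111) or second (0.0758) day 3 library and without the second day 6 library (0.159). It was also lost with a minimum count of 10 (0.0969), without a filter (0.0636), with only the 2 days in the fit (0.210) and with the replicate block (0.0574). Other circles of Snx29 had reads on day 0. Summed over its 13 circles, the host had 124, 0 and 94.0 CPM on day 0. It had 187, 261 and 0 CPM on day 3, and 96.1, 282 and 58.5 CPM on day 6. The summed host did not pass in any comparison.

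Syntaxins are SNARE proteins that define where a carrier fuses. Of 11 hosts 9 were tested, and 1 rose on day 6 against day 0, where 3.86% of all tested hosts rose. That host is Stx6, the syntaxin of the trans-Golgi network and endosomes, which gave 10905 reads, or 15.8% of all membrane traffic reads. It had 3208, 2890.2 and 3423 CPM on day 0, 4631, 3909.7 and 3915 CPM on day 3, and 4662, 4894 and 5035 CPM on day 6. The 3 days formed a staircase without overlap. The log2 fold change was 0.62 ± 0.16 on day 6 against day 0 (adjusted p = 0.0112) and 0.39 ± 0.16 on day 3 against day 0 (adjusted p = 0.232, not passed). The day 6 call held under all 6 other settings and was lost without the second day 0 library (adjusted p = 0.0758).

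Nearly all of Stx6's reads, 96.9%, came from the circle of exons 2 to 7, whose ends leave out only the first and last of the 8 exons. This circle had 3392, 2853 and 3511 CPM on day 0, 4504, 3902 and 3840.0 CPM on day 3, and 4150.5, 4317 and 4848 CPM on day 6. Its log2 fold change of 0.45 ± 0.15 on day 6 against day 0 did not pass (adjusted p = 0.119). It made up 100, 100 and 96.9% of the host's reads on day 0, 97.7, 98.9 and 97.7% on day 3, and 95.3, 92.8 and 95.2% on day 6, so the other circles were most frequent on day 6. The largest of these, exons 4 to 7, was picked after its values were seen. It had 80.9, 247 and 128 CPM on day 6, against 0, 0 and 19.9 CPM on day 0, and its log2 fold change of 4.46 ± 1.90 did not pass (adjusted p = 0.340).

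Stx8, a late endosomal syntaxin, was next at 211, 226 and 316 CPM on day 6, against 65.0, 70.3 and 196 CPM on day 0. The days did not overlap, and the log2 fold change of 1.19 ± 0.65 did not pass (adjusted p = 0.323). Vps45 is the Sec1/Munc18 protein that works with endosomal syntaxins in fusion. It had 542, 820.2 and 779.5 CPM on day 3, against 1479.9, 1554 and 967 CPM on day 0. All day 3 libraries lay below all day 0 libraries, and the log2 fold change was -0.90 ± 0.26 (adjusted p = 0.0400). On day 6 it had 932, 939 and 819 CPM, a log2 fold change of -0.57 ± 0.26 against day 0 that did not pass (adjusted p = 0.245). The day 3 call held in 5 of 9 fits that left out 1 library. It was lost without the first (adjusted p = 0.112) or second (0.176) day 0 library, and without the first (0.3002) or the third (0.0874) day 3 library, without a filter (0.0535) and with only the 2 days in the fit (0.0858).

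Vps45's circles share a start: 8 of its 10 circles begin at exon 8, and these hold 99.2% of its reads.

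The 25 Tbc1d hosts encode GTPase-activating proteins of Rabs, or relatives of them. Of the 21 tested, 2 rose on day 6 against day 0, where 3.86% of all tested hosts rose, and none fell, where 1.8% fell. In that comparison 11 of the 21 log2 fold changes were above 0 and 10 below. Tbc1d1, which controls GLUT4 movement in muscle as a target of insulin and AMPK signalling, had 857, 749.9 and 1057 CPM on day 0, 1199.7, 1338 and 1323 CPM on day 3, and 1110.2, 1704 and 1943 CPM on day 6. Every differentiating library lay above every proliferating one. Its log2 fold change was 0.84 ± 0.24 on day 6 against day 0 (adjusted p = 0.0290) and 0.54 ± 0.24 on day 3 against day 0 (adjusted p = 0.302, not passed). The day 6 call was lost without the first (adjusted p = 0.0636) or second (0.133) day 0 library, without the second (0.0755) or the third (0.235) day 6 library, with library totals in place of TMM (0.0648) and with only the 2 days in the fit (0.107).

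Tbc1d1 made 38 circles. Of its reads 41.5% came from exons 8 to 12, and 69.1% from the 7 circles that end at exon 12. The circle of exons 8 to 12 had 539, 897 and 682 CPM on day 6, against 334, 216 and 338 CPM on day 0. The days did not overlap, and the log2 fold change of 1.25 ± 0.37 did not pass at the level of single circles (adjusted p = 0.0670). Tbc1d14, which binds Rab11 on recycling endosomes and takes part in autophagosome formation, had 519.9, 254 and 466 CPM on day 0, 996, 500.4 and 849.6 CPM on day 3, and 1038, 794 and 868 CPM on day 6. Day 6 lay wholly above day 0, and the second day 3 library fell among the day 0 values.

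For Tbc1d14, the log2 fold change was 1.12 ± 0.31 on day 6 against day 0 (adjusted p = 0.0254) and 0.92 ± 0.31 on day 3 against day 0 (adjusted p = 0.114, not passed). The day 6 call was lost without the second day 0 library (adjusted p = 0.168) or the first day 6 library (adjusted p = 0.0743), with library totals (0.0501) and with only the 2 days in the fit (0.0840). The day 3 comparison passed without the first day 0 library (adjusted p = 0.0428) or the second day 3 library (adjusted p = 0.0232). Its circle of exons 4 to 7 held 67.3% of the reads and had 728, 617 and 613 CPM on day 6, against 369, 177 and 299 CPM on day 0, which did not pass on its own (log2 fold change 1.21 ± 0.42, adjusted p = 0.174).

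Tbc1d5, the Rab7 GTPase-activating protein that binds retromer, had 1230.3, 914 and 976 CPM on day 6, against 806, 492 and 729.7 CPM on day 0. These did not overlap, and the log2 fold change of 0.62 ± 0.29 did not pass (adjusted p = 0.259). Other Tbc1d hosts pointed the other way without passing. Tbc1d32, a ciliary protein of hedgehog signalling, had 81.7, 42.7 and 42.1 CPM on day 6, against 164, 198 and 193 CPM on day 3 (log2 fold change -1.74 ± 0.80, adjusted p = 0.737). Its leading circle of exons 19 to 22 had 0 in each day 6 library, against 73.8, 91.1 and 126 CPM on day 3, at least 8.89-fold lower. It did not pass with edgeR (adjusted p = 0.664) and was the one circle that DESeq2 called on day 6 against day 3 (adjusted p = 0.0489).

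Tbc1d4, the close relative of Tbc1d1 that controls GLUT4 in fat and muscle, had 0 in each day 6 library, against 12.9, 86.9 and 93.4 CPM on day 3. Its level on day 6 was at least 5.64-fold lower (adjusted p = 0.737, not passed), and with 98 reads in all the host is near the limit of what this depth can show. Tbc1d16, a Rab4 GTPase-activating protein, had 0 in each day 6 library, against 62.0, 117 and 128 CPM on day 0. It was at least 8.97-fold lower (adjusted p = 0.0694, not passed).

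Retromer and retriever pull cargo out of endosomes. Of their 6 hosts 3 were tested, and 1 rose on day 6 against day 0, where 3.86% of all tested hosts rose. This was Vps35l, the retriever subunit that corresponds to Vps35 of retromer. It had 157, 184 and 135 CPM on day 0, 319, 361 and 336 CPM on day 3, and 269, 393 and 672 CPM on day 6. Every differentiating library lay above every proliferating one. The log2 fold change was 1.49 ± 0.46 on day 6 against day 0 (adjusted p = 0.0465) and 1.09 ± 0.46 on day 3 against day 0 (adjusted p = 0.255, not passed).

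The Vps35l call was the least stable of the 5 on day 6. Leaving out 1 library kept it in 1 of 9 fits, the one without the first day 6 library. Without the third day 6 library, the log2 fold change was 1.03 and the adjusted p 0.416. Without the first, the second or the third day 0 library the adjusted p was 0.0966, 0.0594 and 0.137, without the first, the second or the third day 3 library 0.0605, 0.0525 and 0.0570, and without the second day 6 library 0.0622. With the replicate number as a block it was 0.0762, with library totals 0.0855, without a filter 0.0766 and with only the 2 days in the fit 0.108. The leading circle of exons 25 to 27 had 35.9, 114 and 455 CPM on day 6, so 1 library carried most of that day's reads, against 43.7, 61.7 and 71.6 CPM on day 0. It did not pass (adjusted p = 0.354).

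HOPS and CORVET are tethers of late and early endosomes, and 5 of their 7 hosts were tested with none passing. Vps11, a core subunit of both, had 0 in each day 0 library, 0, 73.0 and 90.5 CPM on day 3, and 86.5, 55.5 and 84.3 CPM on day 6. It was at least 7.10-fold higher on day 6 than on day 0 (adjusted p = 0.103) and at least 5.13-fold higher on day 3 (adjusted p = 0.177). Neither passed with edgeR, and DESeq2 called the day 3 comparison (adjusted p = 0.0260). GARP and EARP tether carriers at the Golgi and at recycling endosomes. Of their 4 hosts 3 were tested and none passed, with log2 fold changes between -0.16 and 1.28 on day 6 against day 0.

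The exocyst tethers carriers at the plasma membrane. Of its 7 hosts here 5 were tested and none passed. All 5 had a log2 fold change above 0 on day 6 against day 3, with a median of 0.71, beside 1941 of all 4115 tested hosts. On day 3 against day 0, 4 of the 5 were below 0, with a median of -0.30, beside 2105 of all 4115. Both counts use the same day 3 libraries and are not separate observations. Exoc6b had 1312, 999 and 918 CPM on day 6, against 893, 729.8 and 593 CPM on day 3. These libraries did not overlap, and the log2 fold change of 0.54 ± 0.26 did not pass (adjusted p = 0.737). Exoc4 had 116, 167 and 161 CPM on day 3, against 151, 406 and 621 CPM on day 0. The ranges overlapped, and the log2 fold change of -1.40 ± 0.53 did not pass (adjusted p = 0.178), though it did without the first day 0 library (adjusted p = 0.0263) and with DESeq2 (adjusted p = 0.0274). Exoc1, which the naming rule leaves out, had no reads on day 0 and was at least 24.1-fold higher on day 6 and at least 15.4-fold higher on day 3.

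TRAPP complexes are tethers that also activate Rab1 or Rab11. Of 8 hosts 7 were tested and none passed. Trappc9 of TRAPPII had 1495, 1319 and 1175 CPM on day 6, against 989.6, 797 and 997 CPM on day 0. The days did not overlap, and the log2 fold change of 0.52 ± 0.23 did not pass (adjusted p = 0.240). Trappc11 of TRAPPIII had 524, 414 and 574 CPM on day 6, against 142, 266 and 425 CPM on day 0, with overlap and a log2 fold change of 0.87 ± 0.39 (adjusted p = 0.249). Its circle of exons 11 to 15 held 90.1% of its reads.

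Rab GTPases themselves made few circles: together with the antisense gene Rab10os, which had 1 circle with 7 reads and was not tested, 25 hosts carried 55 circles. Of these hosts 12 were tested, with none passing in any comparison by edgeR. Rab2a, a Rab of the Golgi and late endosomes, had 38.4, 158 and 84.3 CPM on day 6, against 0 in each day 3 library, at least 9.73-fold higher. It did not pass with edgeR (adjusted p = 0.737), and it was the one host that DESeq2 called on day 6 against day 3 (adjusted p = 0.0488). One of its circles lay on the opposite strand, in an intron, with 8 reads. Rab regulators and effectors carried more, with 61 circles from 7 hosts, of which 6 were tested and none passed. Rab3ip, the exchange factor known as Rabin8, ranged from 295 to 890.5 CPM over the libraries. Rab3gap1, the catalytic subunit of the Rab3 GTPase-activating complex, had 216, 222 and 225 CPM on day 6, against 328, 496 and 418 CPM on day 0. Its days did not overlap, and the log2 fold change of -0.90 ± 0.43 did not pass (adjusted p = 0.275).

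Vps13 proteins move lipids between membranes at contact sites. All 4 hosts were tested and none passed. All 4 log2 fold changes were below 0 on day 6 against day 0, from -0.69 to -0.05. Over all 4115 tested hosts, 2204 were below 0. Vps13b, which acts at the Golgi, made the most circles of any membrane traffic host, 47. It had 1498, 848 and 1685 CPM on day 0, 955, 1299.8 and 999 CPM on day 3, and 1125, 1255 and 1004 CPM on day 6, and the days overlapped. ESCRT hosts, which bud vesicles into endosomes, numbered 3, with 2 tested and none passing.

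At the level of single circles, 234 of the 915 passed the filter, and these hold 87.1% of the reads. On day 3 against day 0, 1 of the 234 passed, where 1.58% of all 8153 tested circles did: 1 fell, where 0.27% fell, and none rose, where 1.31% did. On day 6 against day 0, 3 passed, where 1.99% did: 1 rose, where 1.47% did, and 2 fell, where 0.515% did. On day 6 against day 3 none passed, where 0.0613% of all tested circles did. These calls are the Snx5 and Snx29 circles given above. The 1 that rose is the Snx29 circle, which passed the filter only through its day 3 and day 6 libraries.

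An unadjusted p under 0.05 was reached by 19 member circles on day 3 against day 0 (8.12% beside 9.51% of all tested circles), by 21 on day 6 against day 0 (8.97% beside 11.6%) and by 9 on day 6 against day 3 (3.85% beside 4.34%), and DESeq2 called 1 in that last comparison. The libraries of the compared days did not overlap for 29 (12.4% beside 16.1% of all tested circles), 31 (13.2% beside 16.4%) and 22 (9.4% beside 9.13%) member circles in the same order. The median log2 fold change of the tested member circles was 0.19 on day 6 against day 0 and 0.09 on day 3 against day 0, beside 0.01 and 0.12 over all tested circles. With library totals in place of TMM the day 3 median was -0.01, and the day 6 median was -0.02 without the third day 6 library, 0 without the second and 0.04 without the first, so no direction is read from either.

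Most member circles were rare. Of the 915, 521 were listed in a single library, and 45 were listed in all 9 and held 61.2% of the reads. Circles seen only on day 0 numbered 207, only on day 3 194 and only on day 6 161, and 176 were seen on all 3 days. A library listed 198 to 266 member circles on day 0, 230 to 262 on day 3 and 209 to 295 on day 6. At the level of hosts, 43 of 130 had reads in all 9 libraries and 20 in a single one.

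The reads of a host tended to sit on a few splice sites. Among membrane traffic hosts with 10 or more circles, 32 in number, the leading circle held a median of 46.2% of a host's reads, the most used acceptor (the start of a circle's first exon) 56.3% and the most used donor (the end of its last exon) 54.8%. The medians over the other 1036 hosts with as many circles were 37.4%, 51.7% and 47.3%, and the difference was not tested. Some hosts shared an acceptor. At Snx9, 8 circles began at exon 2 and held 92.7% of its reads, and at Tbc1d14, 7 began at exon 4 and held 81.5%. Other hosts shared a donor: at Snx27, 5 circles ended at exon 7 and held 77.1% of its reads, and at Exoc6b, 3 ended at exon 6 and held 85.6%. Vps13b, with 24.6% on its leading circle of exons 4 to 6, and Vps50 of the EARP tether, with 24.9%, were the most dispersed of the 15 hosts with the most reads.

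**Figure D5:**
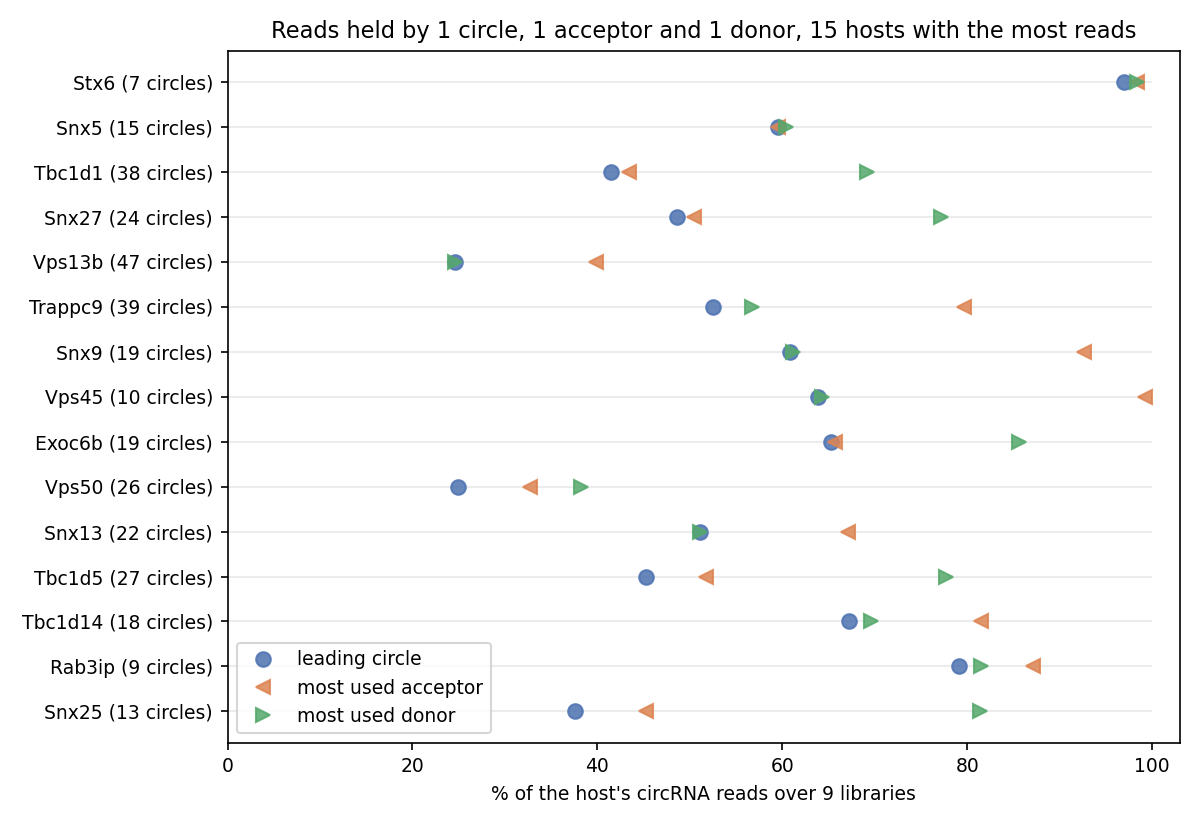
Percent of a host's circRNA reads (horizontal axis, summed over 9 libraries) held by its leading circle, its most used acceptor and its most used donor, for the 15 membrane traffic hosts with the most reads. At Snx9 a single acceptor holds 92.7% while the leading circle holds 60.8%, and at Vps13b the leading circle holds 24.6%.

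In structure the member circles resembled other hosted circles in part. Of the member circles 86.7% were annotated as exonic, beside 89.9% of the 35900 other hosted circles, and 83.5% had both ends at annotated exon edges, beside 80.6%. Their median spliced length, with every annotated exon between the ends counted, was 578 bases, beside 585. Their median genomic span was 13139 bases, beside 9589, and the introns before and after them had medians of 7480 and 4622 bases, beside 4917.5 and 3467. Among circles listed in all 9 libraries the order was the other way, with medians of 11903 and 7715 bases for the members, beside 12593.5 and 9317. Fewer held the start codon of their host, 5.44% beside 11.7%, and fewer began at exon 2, 21.6% beside 25.7%. A circBase name was given for 2.62% of member circles, beside 2.74%. These differences were not tested, since circles of a host share its exons.

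A further list of 212 genes of coats, adaptors, Arf and Rab regulators, SNAREs, tethers and membrane shaping was drawn up beside the naming rule. Of these 161 had a circRNA and 119 were tested. On day 3 against day 0, 4 rose, which is 3.36% of those tested beside 3.04% of all tested hosts, and none fell, beside 0.923%. On day 6 against day 0, 7 rose, 5.88% beside 3.86%, and none fell, beside 1.8%. On day 6 against day 3 none passed, where 0.0729% of all tested hosts did. The genes that rose on day 6 were Arf3, an Arf GTPase of the Golgi, Asap1 and Psd3, which act on Arfs, Evi5, a Rab GTPase-activating protein, Rin2, a Rab5 exchange factor, Sec24b, a cargo adaptor of the COPII coat, and Bin1, a BAR protein of muscle T-tubules. Bin1 had 423, 346 and 496 CPM on day 6, against 14.8, 172 and 30.1 CPM on day 0 (log2 fold change 2.56 ± 0.64, adjusted p = 0.00964). Asap1, Psd3, Arf3 and Arfgef2 were those that rose on day 3.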

How the data were processed

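RNA that the submitters describe as enriched for circRNAs was sequenced in 9 C2C12 libraries. The authors deposited counts of reads per circRNA in 1 table of the whole series. The mapper BWA and the genome build GRCm38.p4 (mm10) are named per the submitters' processing notes. Which circRNA caller, filters and strand setting were used is not stated by any source used here. All 9 value columns were mapped to a library and none was left over (0). The column of the first day 6 library was mapped by its description, and the others by title. Counts were summed per host, and both levels were fitted over all hosts or circRNAs and all 9 libraries with TMM factors and edgeR 4.0.16 (quasi-likelihood test, R 4.3.3, limma 3.58.1). By edgeR's filter, features were kept with at least 5 reads, scaled to library depth, in at least 3 libraries and 15 reads in all. The 3 libraries could be of different days, so a feature at 0 on a day passed the filter only through its other days. Adjusted p is Benjamini-Hochberg over all features tested, and errors of log2 fold changes are SE from the fit. Host and circle CPM use separate TMM factors, so a circle can exceed its host.

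Alternatives were library totals without TMM, DESeq2 1.42.0, a minimum count of 10, no filter, only the 2 days compared, the replicate number as a block, and each library left out. The fit was tested on simulated data with known folds. At each fold, most of the changed hosts and circles were not called, so a change that did not pass may still be present. Members, lists and tests were chosen with earlier results of these data known. Named hosts were those past the threshold in any comparison, the 2 of each family with the highest mean CPM and the 5 with the smallest unadjusted p per comparison; named circles were those past the threshold, the 10 with the highest mean CPM, the 3 with the smallest unadjusted p per comparison and the leading circle of each named host, except that the counts and sequence of the Vps45 one are not reported here. Library depth was 208787 to 443955 reads, and a floor of 3 reads per library was used where a day was at 0.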

Additional observations from a re-analysis of the deposited data

How the results depend on the processing

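The fold changes followed through the alternatives were those past the threshold and those with the smallest unadjusted p per comparison. None of these turned its direction, whereas the members' medians on day 3 and on day 6 against day 0 did, as given above. The other fold changes in the text were not followed in this way. Member hosts called on day 3 against day 0, on day 6 against day 0 and on day 6 against day 3 numbered 2, 5 and 0; they numbered 2, 2 and 0 with library totals, 5, 13 and 1 with DESeq2, 1, 5 and 0 with a minimum count of 10, 1, 4 and 0 without a filter, and 1, 1 and 0 with only the 2 days in the fit. Leaving out 1 library gave 1 to 3, 1 to 5 and 0. Of all 4645 to 4796 hosts tested in those fits, 131 to 195, 185 to 263 and 2 to 8 were called. Member circles called numbered 1, 3 and 0; they numbered 3, 3 and 0 with library totals, 2, 13 and 1 with DESeq2, 0, 2 and 0 with a minimum count of 10, 1, 2 and 0 without a filter, and 0, 1 and 0 with only the 2 days. Leaving out 1 library gave 1 to 2, 1 to 4 and 0 to 1. Of all 11138 to 11851 circles tested in those fits, 98 to 166, 143 to 197 and 5 to 8 were called. With DESeq2 290, 464 and 20 of all 4115 tested hosts and 272, 466 and 20 of all 8153 tested circles were called. Library totals called 145, 213 and 3 of 4115 hosts and 136, 179 and 5 of 8153 circles. A minimum count of 10 called 141, 215 and 3 of 3446 hosts and 96, 132 and 4 of 5880 circles. Without a filter 169, 245 and 6 of 6943 hosts and 112, 127 and 9 of 37751 circles were called. With only the 2 days, hosts called were 114 of 3535, 139 of 3367 and 1 of 3368. Circles called then were 30 of 5930, 70 of 5419 and 0 of 5944. The cause of these moves was not tested.

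Libraries with the same replicate number did not deviate together (correlations from -0.0330 to -0.00103 over hosts and from -0.0310 to 0.00968 over circles). Libraries with different numbers gave -0.0249 to 0.0413 over hosts and -0.0196 to 0.0223 over circles. Each deviation was taken from the mean of 3 libraries. These values therefore cannot tell whether libraries of a number share a culture or batch. With the replicate block 2, 5 and 0 member hosts were called, where 188, 261 and 4 of all 4115 tested hosts were. Member circles called then were 1, 2 and 0, where 144, 172 and 5 of all 8153 tested circles were. Without TMM the median of all tested hosts moved to -0.15 from -0.02 on day 3 against day 0 and to -0.24 from -0.13 on day 6 against day 0. Hosts called higher and lower then numbered 97 and 48 in place of 125 and 38, and 121 and 92 in place of 159 and 74; with DESeq2 they numbered 171 and 119, and 249 and 215. Circles called higher and lower numbered 107 and 22 on day 3 and 120 and 42 on day 6, and with DESeq2 170 and 102, and 272 and 194. Most member circles were too rare to test at this depth.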
